A study of Saccharomyces cerevisiae with 16 samples.

Results

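The mRNAs described here encode 33 yeast enzymes of the pathways from glucose to pyruvate, ethanol, acetate and glycerol. They were chosen by name for their place in these pathways, not by a measured value, though earlier results of these data were known. They are 33 of the 5818 genes in the table of footprint counts. From glucose to the triose phosphates there were 8: the hexose kinases HXK1 (YFR053C), HXK2 (YGL253W) and GLK1 (YCL040W), the isomerase PGI1 (YBR196C), the phosphofructokinase subunits PFK1 (YGR240C) and PFK2 (YMR205C), the aldolase FBA1 (YKL060C) and the triose phosphate isomerase TPI1 (YDR050C). From there to pyruvate there were 9: the glyceraldehyde phosphate dehydrogenases TDH1 (YJL052W), TDH2 (YJR009C) and TDH3 (YGR192C), the kinase PGK1 (YCR012W), the mutase GPM1 (YKL152C), the enolases ENO1 (YGR254W) and ENO2 (YHR174W), and the pyruvate kinases CDC19 (YAL038W) and PYK2 (YOR347C). Ethanol formation and use had 8: the pyruvate decarboxylases PDC1 (YLR044C), PDC5 (YLR134W) and PDC6 (YGR087C) and the alcohol dehydrogenases ADH1 (YOL086C), ADH2 (YMR303C), ADH3 (YMR083W), ADH4 (YGL256W) and ADH5 (YBR145W). Acetate and acetyl-CoA formation had 4, the acetaldehyde dehydrogenases ALD6 (YPL061W) and ALD4 (YOR374W) and the acetyl-CoA synthetases ACS2 (YLR153C) and ACS1 (YAL054C). Glycerol formation had 4, the glycerol phosphate dehydrogenases GPD1 (YDL022W) and GPD2 (YOL059W) and the phosphatases GPP1 (YIL053W) and GPP2 (YER062C). All 33 reached a mean of at least 20 counts over the 6 libraries, as did 4716 genes in all.

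The study sequenced the RNA fragments that formaldehyde-fixed ribosomal complexes protected from RNase I in the yeast Saccharomyces cerevisiae, with small subunits (40S) separated from whole ribosomes. Selective libraries were made from complexes pulled down through a FLAG-tagged initiation factor. The 6 libraries used here were of 40S and were grown in YPD, a rich glucose medium, at 30 °C to an OD600 of about 0.7 to 0.8, then fixed with 0.8% formaldehyde for 1 h on ice. Unselected library 1-1 and the eIF3a-bound library came from strain SY182 (eIF3a/TIF32-FLAG). Unselected library 1-2 and the eIF3c-bound library came from H25 (eIF3c/NIP1-FLAG). Unselected library 1-3 and the eIF2beta-bound library came from SY194 (eIF2beta/SUI3-FLAG). All 6 libraries thus carried a tagged factor, and none was untagged. Each factor had 1 library in a strain of its own, so factor and strain cannot be told apart. The 3 libraries of a group came from 3 strains, so the spread behind the p-values holds strain and culture together with technical error, and among bound libraries the 3 factors add to it. No strain had a second 40S library in either group. Whether the unselected and the bound library of a strain came from 1 culture is not stated.

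A 40S subunit with its initiation factors loads at the mRNA's cap, scans the 5′ UTR and halts at the start codon, where the large subunit joins and most factors leave. eIF3 is the scaffold of that scanning complex and eIF2 brings the initiator tRNA. Yeast in glucose ferments: glycolytic enzymes are among its most abundant proteins, and for several steps the genome holds close copies of which one dominates in glucose and others are known from growth on ethanol, from osmotic stress or from the absence of oxygen.

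The libraries held 1595793 to 2800652 counts without selection and 3403297 to 4486412 with it. The table gives a count for each of 5 areas of every gene, namely the start and stop codons, the coding region and both UTRs. The 33 mRNAs took 14.0% to 15.2% of the counts of the unselected libraries and 13.9% to 15.9% of those of the bound libraries, and the groups overlapped. They were 6 of the 10 genes with the highest CPM (the count scaled to a fixed library total) without selection, 8 of the first 20 and 12 of the first 100. Fewer mRNA molecules and fewer subunits on each mRNA cannot be told apart in these counts.

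TDH3, the main glyceraldehyde phosphate dehydrogenase (chromosome VII, 882812 to 883810, minus strand, build R64), ranked first of all genes. In unselected libraries 1-1, 1-2 and 1-3 it had 30624, 30327 and 31215 CPM over all areas. Compared per length, in CPM per kilobase of coding region, TDH3 also led the members with 16624 ± 1012 (SD, n = 3), above every library of the next. FBA1, the aldolase, followed at 11357 ± 726, then PDC1, the main pyruvate decarboxylase, at 10194 ± 486 and ENO2, an enolase, at 10161 ± 1172, and the libraries of neighbours among these overlapped. GPM1 (phosphoglycerate mutase), TDH2, ADH1 (the main alcohol dehydrogenase of fermentation) and CDC19 (the main pyruvate kinase) lay between 7969 and 8527 and overlapped with one another, below every library of ENO2 and above every library of the next, PGK1.

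The middle of the order ran from PGK1, the phosphoglycerate kinase, at 5142 ± 502 CPM per kilobase, through TPI1 (4311 ± 197), ENO1 (4125 ± 253), TDH1 (1757 ± 140), GPP1 (1449 ± 183) and PGI1 (1006 ± 41.4) to GPD1 (199 ± 80.8), GLK1 (183 ± 63.1), HXK1 (132 ± 59.7) and GPP2 (113 ± 54.6). The 3 libraries of the last 4 overlapped. The members with fewest coding footprints per length were copies known from other conditions. ACS1, the acetyl-CoA synthetase of growth without glucose, had 12.3 ± 5.11 CPM per kilobase, and PDC6, a minor pyruvate decarboxylase, had 9.50 ± 3.47. PYK2, a minor pyruvate kinase, had 21.5 ± 4.33. Their counts in single libraries were small, such as 9, 7 and 14 coding counts of PDC6 without selection.

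Without selection, the typical member differed from the typical gene in where its subunits lay. The median member had 56.5% of its counts at the start codon, against 29.6% over the 4716 genes, and 28.9% in the coding region, against 50.4%. TDH3 had 78.3% ± 1.62 (SD, n = 3) of its counts at the start codon, and 10 genes of the 4716 had a higher share. FBA1 followed with 74.4% ± 2.32, with 28 genes above it, then ADH1 with 72.1% ± 3.07, TPI1 (triose phosphate isomerase) with 71.6% ± 1.94 and ENO2 with 71.3% ± 2.98. At the other end stood ADH2, the alcohol dehydrogenase that consumes ethanol, with 1.20% ± 0.913, GPD2, a glycerol phosphate dehydrogenase known from growth without oxygen, with 3.82% ± 1.15, and PDC5, a pyruvate decarboxylase, with 4.51% ± 1.71. ACS1 had no start codon count in any unselected library.

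The 5′ UTR held 2.58% of the counts of the median member and 4.32% of those of the median gene. Far above this stood ADH4, an alcohol dehydrogenase of a different protein family, with 49.5% ± 3.87, HXK1, a hexokinase, with 45.7% ± 3.32, and PFK1, a subunit of phosphofructokinase, with 41.3% ± 4.47 (SD, n = 3). Of the 4716 genes, 214, 263 and 324 had a higher 5′ UTR share. ADH4 is a sparse mRNA, with 39, 16 and 27 counts in that area, while PFK1 had 1356, 833 and 1127. PFK2, the partner subunit of PFK1, had 4.33% ± 0.614, and HXK2, the other hexokinase, had 2.41% ± 0.383. For HXK1 the authors' list of cap sites gives positions 255160 and 255153 on chromosome VI, 111 and 104 nt before the start codon, and it is the only member in that list. The lowest share with any count was that of GPM1, at 0.209% ± 0.0205, and PDC5, PDC6, GPD2 and ACS1 had no 5′ UTR count without selection.

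Selection through an initiation factor moved the members' counts towards the 5′ end, as it did for the median gene. The median 5′ UTR share of the members was 5.41% in bound libraries, the start codon share 68.4%, the coding share 14.1%, the stop codon share 0.240% and the 3′ UTR share 0.633%. Over the 4716 genes the same medians were 8.99%, 44.3%, 31.0%, 0.624% and 0.926%. Every bound library lay above every unselected library in 5′ UTR share for 25 of 33 members, against 42.9% of the 4716 genes, and for 0 members below (1.21% of genes). The start codon share lay above in this sense for 21 (46.6% of genes), and the coding share lay below for 28 (60.4% of genes). Stop codon shares lay below for 23 (33.6% of genes) and 3′ UTR shares for 19 (28.9% of genes). The members include many of the deepest-covered mRNAs, and how far depth moves the percentages of genes was not tested. With 3 libraries against 3, the smallest two-sided p of an exact permutation test is 0.1, so no single share could pass 0.05.

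The size of the move differed between members. PGI1, the glucose phosphate isomerase (chromosome II, 612236 to 613900), had 5′ UTR shares of 4.43% to 4.92% without selection and 12.1% to 21.0% with it, 3.87 times as much on average. PFK1 went from 36.5% to 45.3% without selection to 61.1% to 78.0% with it, so that its 5′ UTR held most of its bound footprints. TDH1, the minor copy of TDH3, had 5.46% to 5.64% and then 11.6%, 11.4% and 27.1% with eIF3a, eIF3c and eIF2beta. In TPI1 the share went from 1.58% ± 0.130 to 2.27% ± 0.402, and in FBA1 from 0.353% ± 0.0367 to 0.685% ± 0.193, so these 5′ UTRs still held few footprints.

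In the coding region, ENO2 went from 23.0% ± 2.82 of its counts to 6.99% ± 1.95, PDC1 from 28.1% ± 2.61 to 8.65% ± 1.83, and PFK1 from 28.0% ± 0.593 to 5.4% ± 1.71 (SD, n = 3). The groups of libraries were far apart for these mRNAs. GPD2 was the one member that went the other way, with 94.2% to 95.3% of its counts in the coding region without selection and 97.8% to 98.9% with it (3.56% of genes), and it was also the one whose start codon share lay lower in all bound libraries (3.35% of genes). The 4 members whose coding shares overlapped between groups were ENO1, PDC6, ADH5 and ACS1. For ENO1, the enolase copy less used in glucose, the eIF3a-bound library had 78.1%, as high as the highest unselected library, while those of eIF3c and eIF2beta had 43.0% and 43.3%.

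**Figure D1:**
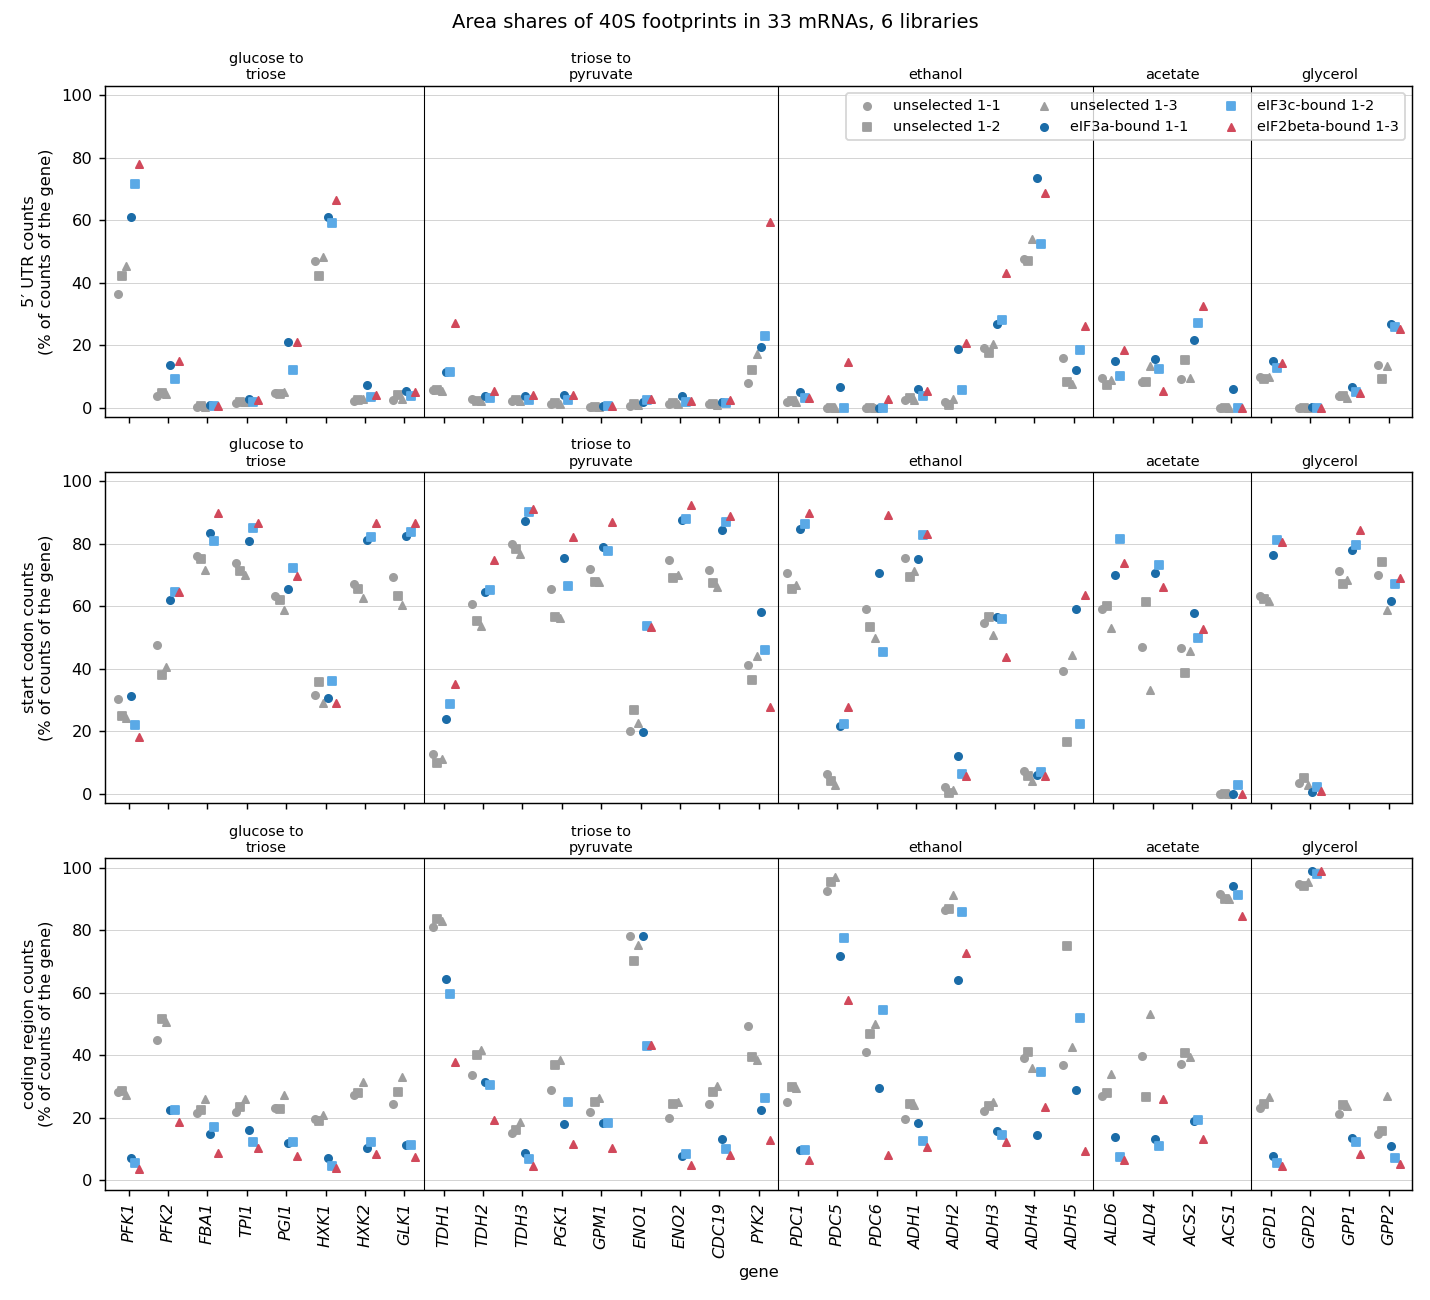
Share of each gene's 40S counts in the 5′ UTR, at the start codon and in the coding region (vertical axes, percent), for the 33 genes in order of their pathway (horizontal axis), with 1 point per library. Grey points are the 3 unselected libraries and coloured points the 3 bound ones. PFK1, HXK1 and ADH4 stand highest in 5′ UTR share, and GPD2, PDC5, ADH2 and ACS1 stand highest in coding share without selection.

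Whether single members changed relative to other genes was tested area by area. Counts were scaled within each area (TMM), so a log2 fold of bound over unselected is relative to the typical gene of that area. Scaled to all areas together, the median gene moved by 1.28 on the log2 scale in 5′ UTRs, 0.54 at start codons, −0.81 in coding regions, −1.80 at stop codons and −0.97 in 3′ UTRs, so every fold below is a change beyond these. Scaling to all areas also used TMM factors over all areas, which add to every fold (0.25 in the fit over all areas). Its folds, here and below, are thus not folds on plain library totals. The test was the quasi-likelihood test of edgeR, with p-values adjusted by Benjamini-Hochberg over all genes tested in an area and a threshold of 0.05.

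At the start codon, 30 members had enough counts and 2 of them fell, against 5.12% of 3868 genes, and none rose (1.34% of genes), with 7 at an unadjusted p under 0.05. The median fold of the 30 was −0.07, against 0.02 over all genes tested. CPM of a single area, here and below, are scaled to the counts of the tested genes of that area and its TMM factors, not to plain totals. PGI1 had 2221, 2942 and 2248 CPM of start codon counts in the unselected libraries and 1018, 1292 and 1352 in those of eIF3a, eIF3c and eIF2beta. The groups did not overlap, and the fall of PGI1 was −1.02 in log2 terms (SE 0.18, edgeR adjusted p = 0.0136). GPM1 (chromosome XI, 163642 to 164385) had 10413, 10915 and 10079 without selection and 7169, 6428 and 6801 with it. It fell by 0.62 (SE 0.12, edgeR adjusted p = 0.0178), again without overlap. PGI1 missed the threshold without unselected library 1-2 or the eIF3a- or eIF3c-bound library (folds −0.87 to −1.05, edgeR adjusted p of 0.0514 to 0.0578), and GPM1 without any 1 library other than the eIF2beta-bound one (folds −0.57 to −0.66, adjusted p of 0.0514 to 0.0873). Scaled to all areas, neither was called (log2 folds −0.48 and −0.09).

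With the strain as a block, the same test called 11 members at the start codon, 3 rises (12.6% of genes) and 8 falls (16.2% of genes), and held both falls above. The rises were TDH1 at 0.51, HXK1 at 0.47 and GPD1, the glycerol phosphate dehydrogenase induced by osmotic stress, at 0.36. The further falls were in GPD2 (−1.61), PGK1, the phosphoglycerate kinase (−0.85), GPP1 and GPP2, the glycerol phosphate phosphatases (−0.48 and −0.39), FBA1 (−0.40) and GLK1, the glucokinase (−0.34). The fall of GPP2 was mainly in H25, with 230 of 850273 start codon counts without selection and 437 of 2777966 with it. In SY182 it had 148 of 1613682 and 175 of 2093908. In SY194 its shares were close, 159 of 984883 and 453 of 2744844. GPD2 entered this test through the unselected libraries alone, where its start codon counts were 16, 7 and 8. The deeper libraries of eIF3a, eIF3c and eIF2beta had 4, 11 and 9. The filter on low counts thus favoured a fall of GPD2, and no conclusion is drawn from it. HXK1 shows what the block takes out. It had 125, 341 and 117 CPM of start codon counts without selection and 179, 440 and 170 with it, so strain H25 was highest in both groups and each strain was higher after selection. GLK1 overlaps the dubious frame YCL042W by 106 nt on the same strand, so some of its counts could be assigned to either.

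TDH3 had 42922, 47207 and 47410 CPM of start codon counts without selection and 58446, 54767 and 56906 with it. Its groups did not overlap, but its log2 fold of 0.31 (SE 0.10) did not pass the test (edgeR adjusted p = 0.0998), nor with the strain as a block (adjusted p = 0.0808). PGK1 had 7842, 5459 and 6263 and then 4472, 2527 and 4065, and its fold of −0.82 (SE 0.22) missed the threshold (edgeR adjusted p = 0.0605). DESeq2 called PGK1 beside PGI1 and GPM1.

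In coding regions all 33 members were tested. Of these, 3 rose (14.4% of 4797 genes) and 10 fell (11.8% of genes), and the median fold was −0.38 against −0.00 over all genes tested. The falls by role were PGI1, PFK1 and PFK2 among the enzymes from glucose to triose phosphate, PGK1, ENO2 and CDC19 from there to pyruvate, PDC5, PDC1 and ADH2 in ethanol metabolism, and ALD6, the cytosolic acetaldehyde dehydrogenase. The rises were TDH2, ADH3, the mitochondrial alcohol dehydrogenase, and GPD2.

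PDC5 (chromosome XII, 410723 to 412414) had 277, 205 and 260 coding counts without selection and 53, 69 and 52 in the deeper bound libraries. In CPM of coding counts that was 342, 404 and 425 against 95.2, 94.3 and 99.4. The groups were far apart, and PDC5 fell by 2.02 (SE 0.20, edgeR adjusted p = 9.37e-05). ADH2 (chromosome XIII, 873291 to 874337) had 495, 511 and 666 against 160, 264 and 168 and fell by 1.49 (SE 0.24, edgeR adjusted p = 0.00122). Each is a close copy of a far more abundant mRNA, PDC1 or ADH1, and the sources used here do not state how reads that match both copies were assigned.

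PGI1 had 1604, 1714 and 1633 CPM of coding counts and then 740, 856 and 780, and fell by 1.06 (SE 0.16, edgeR adjusted p = 8.74e-04). The falls of PGK1 (−0.80), PFK2 (−0.77), ALD6 (−0.73), ENO2 (−0.70), PFK1 (−0.67), PDC1 (−0.58) and CDC19 (−0.48) were smaller, with edgeR adjusted p-values of 0.00354 to 0.0413. ENO2 had 13720, 11327 and 14471 and then 9087, 7776 and 7403, and PDC1 had 16539, 16196 and 18313 and then 11571, 10614 and 12014. In both the groups did not overlap. PFK1 and PFK2 have the longest coding regions of the 33, 2964 and 2880 nt, and folds in coding regions moved with length: the median was 0.40 in the shortest tertile of genes, −0.01 in the middle and −0.44 in the longest. With an offset for coding length, the folds of PFK1 and PFK2 were −0.22 and −0.33 and neither was called (edgeR adjusted p = 0.413 and 0.262).

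GPD2 (chromosome XV, 217126 to 218448) had 439, 129 and 263 coding counts without selection and 543, 493 and 881 with it, or 541, 254 and 430 against 975, 674 and 1684 CPM of coding counts. The groups did not overlap. GPD2 rose by 1.44 (SE 0.33, edgeR adjusted p = 0.00772), while its start codon counts stayed few, 16, 7 and 8 without selection and 4, 11 and 9 with it. Its 5′ UTR had a single count in the 6 libraries. Scaled to all areas, the rise of GPD2 was 0.57 and was not called (edgeR adjusted p = 0.119).

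TDH2, a close copy of TDH3, had 8501, 7562 and 8531 CPM of coding counts and then 19928, 10495 and 10944, with the eIF3a-bound library highest. It rose by 0.75 (SE 0.21, edgeR adjusted p = 0.0217), and ADH3 rose by 0.66 (SE 0.20, edgeR adjusted p = 0.0276), and they turned to −0.034 and −0.16 when scaled to all areas. With the coding-length offset neither was called (edgeR adjusted p = 0.0747 and 0.0614), nor was CDC19 (−0.40, adjusted p = 0.118; in DESeq2 0.112). Several of the smaller calls did not pass with 1 library fewer, at folds of the same sign. Without any 1 unselected library TDH2 was not called (folds 0.70 to 0.78, edgeR adjusted p of 0.0553 to 0.0803). ADH3 was not called without any 1 unselected or the eIF2beta-bound library (0.57 to 0.73, adjusted p of 0.0593 to 0.121), nor was CDC19 without any 1 library other than the eIF3a-bound one (−0.36 to −0.52, adjusted p of 0.0753 to 0.133). PFK1 and PFK2 were not called without unselected library 1-1 (−0.61 and −0.69, adjusted p = 0.0664 and 0.0593), nor ALD6 without unselected library 1-2 or 1-3 (−0.60 and −0.73, adjusted p = 0.0776 and 0.0533). With the strain as a block, GLK1 (−0.88, edgeR adjusted p = 2.86e-04) and GPD1 (−0.72, edgeR adjusted p = 0.00375) fell too, against 17.2% of genes.

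The other 20 members did not pass the test in coding regions. Among them were both hexokinases, FBA1 (−0.07), TDH3 (0.13), GPM1 (−0.17) and ADH1 (0.37), which are some of the most counted of the 33. ALD4 and both acetyl-CoA synthetases, ACS1 and ACS2, did not pass either. ACS1 had 22, 18 and 9 coding counts without selection and 16, 31 and 27 with it.

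**Figure D2:**
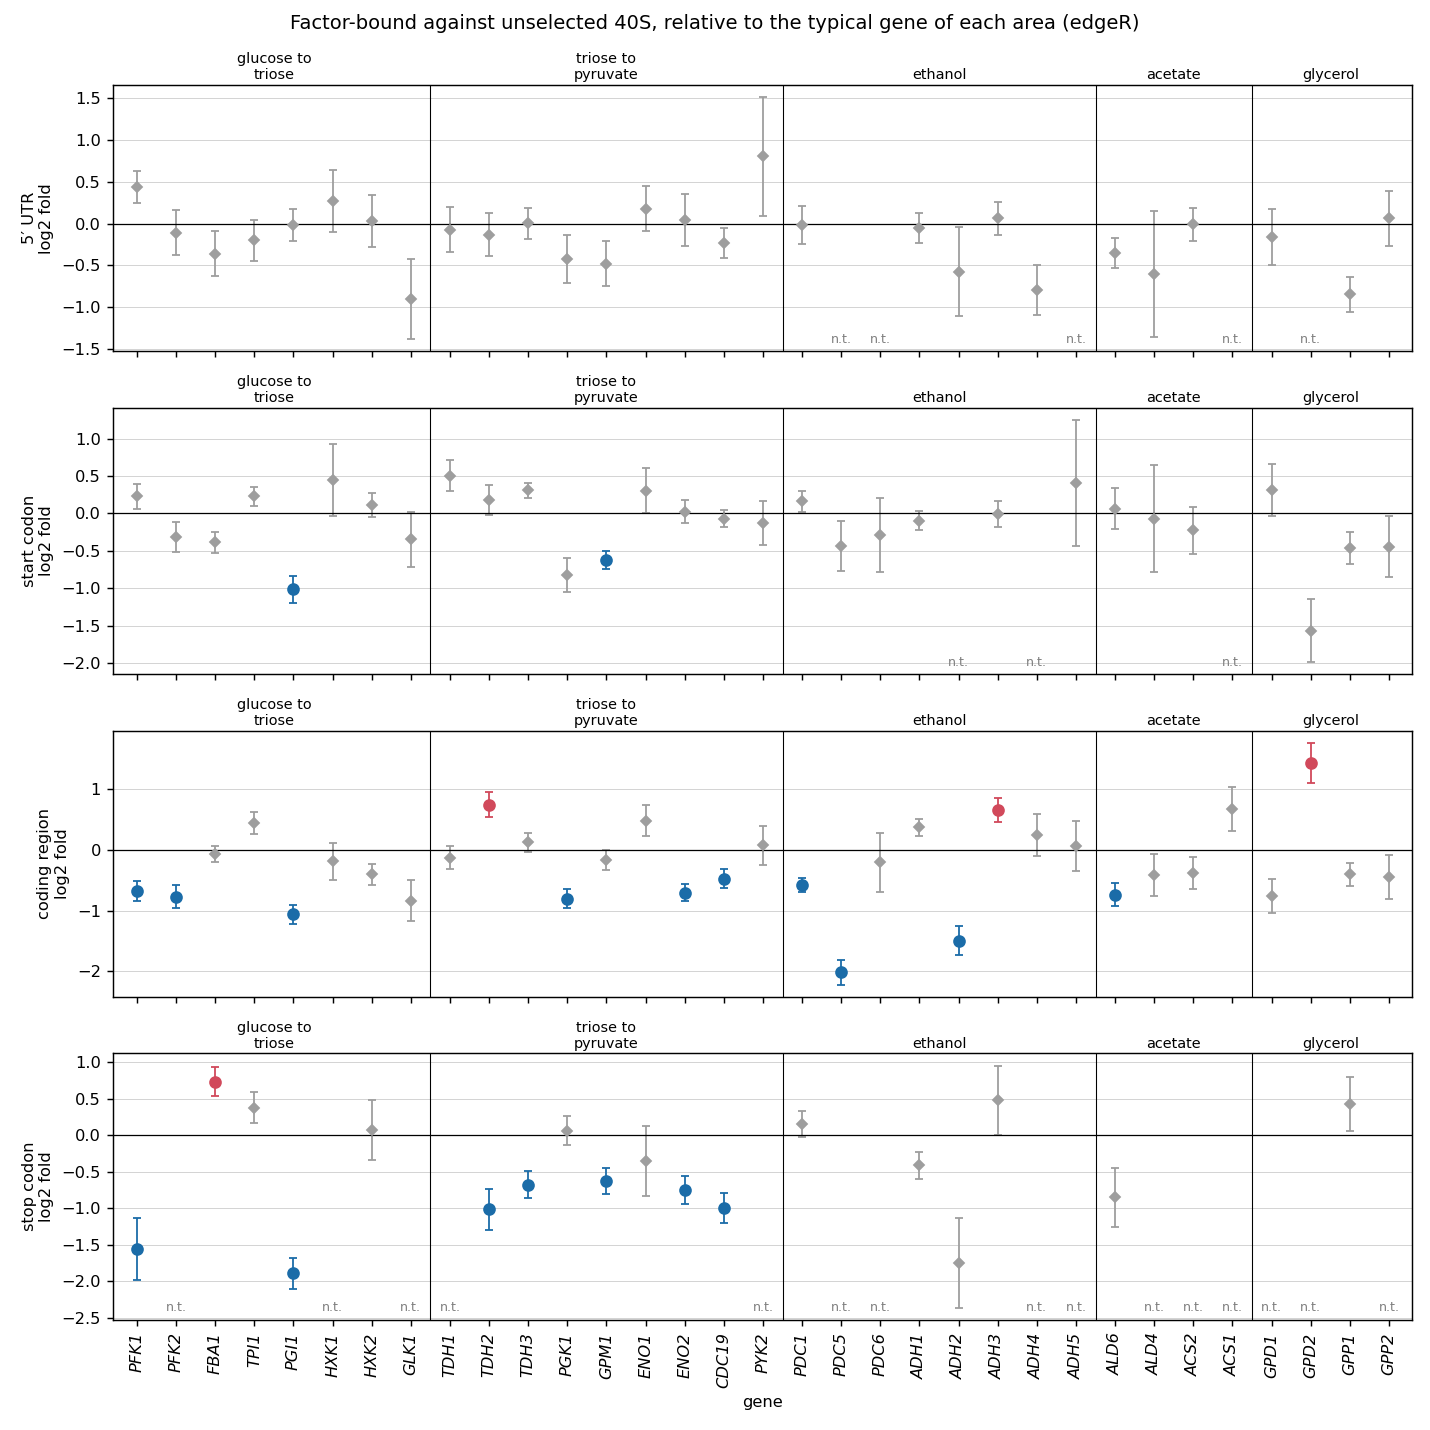
Log2 fold of factor-bound over unselected 40S counts (vertical axes, 3 libraries each, bars are ± 1 SE) for the 33 genes (horizontal axis) in 4 areas, relative to the typical gene of each area. Red and blue circles are genes past an edgeR adjusted p of 0.05, grey diamonds did not pass and n.t. marks genes with too few counts. PDC5, ADH2 and PGI1 are lowest and GPD2 highest in coding regions, and no 5′ UTR fold passed.

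At the stop codon, where 40S subunits remain on mRNA after peptide release, 18 members were tested, 7 fell (10.3% of 497 genes) and 1 rose (14.3% of genes). The median fold of the 18 was −0.52, against 0.00 over all genes tested. PGI1 had stop codon shares of 6.92% to 8.51% without selection, and 289 of the 4716 genes had a higher mean. Its counts were 405, 325 and 253 and then 25, 55 and 47. It fell by 1.89 (SE 0.21, edgeR adjusted p = 2.81e-05), so PGI1 was below its unselected level at start codon, coding region and stop codon alike.

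The other falls at the stop codon were PFK1 (−1.56), TDH2 (−1.01), CDC19 (−1.0), ENO2 (−0.75), TDH3 (−0.68) and GPM1 (−0.63), with edgeR adjusted p-values of 0.00437 to 0.0230. Except for PFK1 these encode enzymes from the triose phosphates to pyruvate, of which 5 of 7 tested fell. PFK1 had 61, 38 and 23 stop codon counts without selection and only 4, 8 and 7 with it. It passed the filter on low counts only through the unselected libraries, where it was higher, so its fall carries no weight as a test. TDH3 had 30232, 28038 and 30167 CPM of stop codon counts and then 16693, 20866 and 17598, without overlap. FBA1 rose by 0.73 (SE 0.20, edgeR adjusted p = 0.0170), from 6982, 5161 and 5846 to 11274, 10268 and 8499, and turned to −1.11 when scaled to all areas. The TMM factors at stop codons were 1.14 to 1.19 without selection and 0.834 to 0.880 with it, which raises the bound CPM relative to the unselected. Without unselected library 1-1, PFK1, TDH2, ENO2 and GPM1 were not called (edgeR adjusted p of 0.0557 to 0.0664), which left 4 calls. PFK1 also missed without the eIF3c-bound library (0.0568), and TDH3 and GPM1 without the eIF3a-bound one (0.0832 and 0.109). FBA1 missed without unselected library 1-2 or 1-3 or the eIF3a-bound library (0.0681 to 0.0867), and with no filter on low counts (0.607). ADH2 had a fold of −1.75 (edgeR adjusted p = 0.0538), and with the strain as a block it fell by 1.79 (edgeR adjusted p = 0.0188, 11.7% of genes). Its stop codon counts were 45, 34 and 21 without selection and only 7, 5 and 1 with it. ADH2 too met the filter on low counts through the unselected libraries, so this fall carries no weight as a test.

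In 5′ UTRs, 28 members were tested and edgeR's quasi-likelihood test called none, against 1.67% of 2036 genes that fell and 0.0% that rose. DESeq2 also called none, and 3 members had an unadjusted p under 0.05. These were GPP1, PFK1 and ADH4. GPP1 had 564, 459 and 560 CPM of 5′ UTR counts without selection and 331, 273 and 277 with it, without overlap, a fold of −0.85 (SE 0.21, edgeR adjusted p = 0.0977). With the strain as a block it fell by 0.84 (edgeR adjusted p = 5.11e-04), the 1 member called of the 28, against 5.16% of genes. PFK1 had 5202, 5162 and 6184 and then 5910, 8672 and 7841, with overlapping groups and a fold of 0.44 (SE 0.19). The median fold of the 28 was −0.09, against −0.01 over all genes tested.

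In 3′ UTRs, 20 members were tested and edgeR called none (4.0% of 725 genes rose and 2.21% fell). DESeq2 called none, and 2 had an unadjusted p under 0.05, TPI1 with a fold of −0.49 (SE 0.21) and PFK1 with −0.72 (SE 0.28).

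Ratios of areas within an mRNA do not depend on its level. The ratio of 5′ UTR to start codon counts was tested with limma in 26 members, relative to the median gene of each library, and none passed (0.307% of 1954 genes rose and 0.461% fell). In that test 2 members had an unadjusted p under 0.05, and DESeq2 was not run on ratios. PGI1 had the highest ratio fold of the 26, 1.30 on the log2 scale (SE 0.28, limma adjusted p = 0.0903).

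The ratio of start codon to coding region counts was tested in 28 members, and 4 rose (9.06% of 3718 genes) and none fell (10.2% of genes). GPD1 had 2.73, 2.56 and 2.32 start codon counts per coding count without selection and 9.89, 14.6 and 17.5 with it. That was a rise of 1.09 beyond the median gene (SE 0.25, limma adjusted p = 0.0189). PFK1 had 1.08, 0.876 and 0.890 and then 4.471, 3.998 and 4.979, a rise of 0.91 (SE 0.23, limma adjusted p = 0.0250). Its coding region is long, 2964 nt, and the median coding fold was −0.44 in the longest tertile of genes. With the offset for coding length, the coding fold of PFK1 was −0.22 and was not called. Ratios were not fitted with that offset, so how far length set the ratio rise of PFK1 was not tested. PDC1 rose by 0.75 (SE 0.22, limma adjusted p = 0.0400) and PDC5 by 1.57 (SE 0.42, limma adjusted p = 0.0311). The ratio of PDC5 rests on few start codon counts, 19, 9 and 8 without selection and 16, 20 and 25 with it. In all 4 the groups did not overlap. None of the 4 passed without any 1 unselected library or the eIF2beta-bound library (limma adjusted p of 0.0535 to 0.122). PFK1 and PDC5 also missed without the eIF3a-bound library (both 0.0567), PDC1 without the eIF3c-bound library (0.0656), and PDC1 with the strain as a block (0.0585), which left 3 rises against 10.5% of genes.

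Over all areas together, 4 members rose (15.4% of 5114 genes) and 5 fell (17.3% of genes), and the median fold was 0.11 against −0.06 over all genes tested. These folds are again relative to the typical gene: on plain library totals the median of the 4716 genes was −0.27, and the TMM factors add 0.25 to every fold. In TMM-scaled CPM, PFK1 had 1242, 1121 and 1207 without selection and 1992, 2173 and 2649 with it, and rose by 0.93 (SE 0.14, edgeR adjusted p = 0.00246). TDH3 rose by 0.64 (SE 0.09, edgeR adjusted p = 0.00210), from 28637, 27375 and 28629 TMM-scaled CPM to 46386, 41465 and 43641. On library totals the folds of PFK1 and TDH3 were 0.68 and 0.39, and both were higher in the bound library of all 3 strains. TPI1 rose by 0.52 and ADH3 by 0.57, or by 0.26 and 0.33 on library totals. In SY194 TPI1 was nearly unchanged on library totals, at 4206 CPM without selection and 4215 with it. The groups did not overlap for PFK1 or TDH3.

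PDC5 fell by 2.38 (SE 0.18, edgeR adjusted p = 2.54e-04), from 99.8, 122 and 129.9 TMM-scaled CPM to 23.3, 21.2 and 23.0. ADH2 fell by 2.07 (SE 0.24, edgeR adjusted p = 0.00150), from 155, 169 and 217 to 43.7, 53.5 and 31.0. PGI1 fell by 0.67, PGK1 by 0.65 and GPM1 by 0.33, the last at an edgeR adjusted p of 0.0444. GPM1 missed the threshold without any 1 library other than the eIF3a-bound one (0.0891 to 0.164) and in DESeq2 (−0.29, adjusted p = 0.219). PGK1 missed without unselected library 1-1 or 1-3 or the eIF3c- or eIF2beta-bound library (0.0687 to 0.116), TPI1 without unselected library 1-2 (0.0507) and ADH3 without unselected library 1-2 or 1-3 (0.0547 and 0.0738). With the strain as a block, 11 rose and 7 fell, against 24.9% and 26.6% of genes. The block added rises of HXK1 (1.00), GPD1 (0.53), GPD2 (0.51), TDH2 (0.39), PDC1 (0.31), HXK2 (0.27) and ADH1 (0.26), and falls of PFK2 (−0.39) and TDH1 (−0.33). On library totals, with no TMM factors, the folds of ADH1 (0.01), HXK2 (0.02), PDC1 (0.06) and TDH2 (0.14) were near 0, and ADH1 and TDH2 were higher in the bound library of 1 strain of 3. Those of HXK1 (0.76), GPD1 (0.29) and GPD2 (0.27) were larger.

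Some members differed between the tagged strains more than between the groups. On plain library totals, ALD4, the mitochondrial acetaldehyde dehydrogenase, had 43.9, 106 and 23.8 CPM over all areas in the unselected libraries of SY182, H25 and SY194, and 40.0, 90.5 and 20.5 in the bound libraries of the same strains. H25 was highest and SY194 lowest in both groups, with ratios of highest to lowest of 4.45 and 4.41. ADH5, a minor alcohol dehydrogenase, had 13.6, 7.52 and 28.5 and then 19.4, 6.08 and 28.3, the strains again in 1 order. HXK1, GPD1 and GLK1 were also highest in H25 in both groups, with ratios of 2.37, 2.16 and 2.30 among unselected libraries. The median ratio of highest to lowest unselected library was 1.33 over the 33 members and 1.35 over the 4716 genes. Whether this spread came from the strains or from their cultures cannot be told apart.

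**Figure D3:**
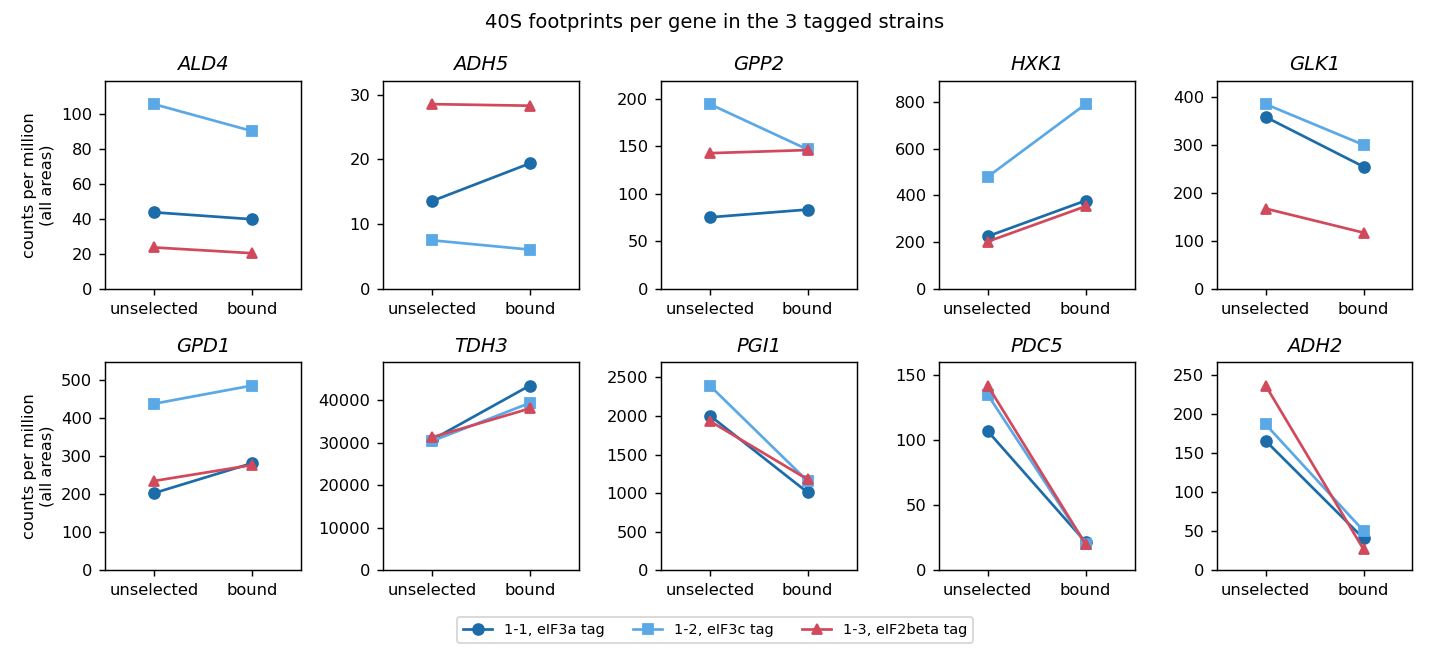
CPM over all areas on plain library totals (vertical axes, starting at 0) in the unselected and the bound library of each tagged strain, joined by lines, for 10 genes. ALD4, ADH5, HXK1, GLK1 and GPD1 keep much of their difference between strains, while PDC5, ADH2 and PGI1 are lower and TDH3 higher in the bound library of all 3.

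Close copies of 1 enzyme differed in where their subunits lay. Start codon counts per coding count were 5.28, 4.89 and 4.15 for TDH3 in the unselected libraries, 1.80, 1.38 and 1.28 for TDH2, and 0.159, 0.120 and 0.135 for TDH1. The libraries of the 3 copies did not overlap. TDH3 held 84.4% to 87.5% of the start codon counts of the 3 copies without selection but 61.3% to 63.0% of their coding counts. With selection these shares were 84.7% to 90.3% and 50.9% to 57.6%.

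The enolases had the same arrangement, with 3.78, 2.85 and 2.81 start codon counts per coding count for ENO2 and 0.257, 0.384 and 0.303 for ENO1. ENO1 held 2.61% to 5.53% of the enolase start codon counts and 28.3% to 30.3% of the coding counts without selection, and 35.8% to 55.5% of the coding counts with it. For the pyruvate decarboxylases the ratio was 2.81, 2.20 and 2.27 in PDC1 and 0.0686, 0.0439 and 0.0308 in PDC5, whose copies are of the same coding length, 1692 nt. For the alcohol dehydrogenases it was 3.82, 2.84 and 2.98 in ADH1 and 0.0249, 0.0039 and 0.0123 in ADH2. Sparse copies did not follow their counts: PDC6, with 15 to 28 counts in all, had ratios of 1.44, 1.14 and 1.0, above those of PDC5, and ADH5, with 12 to 54 counts, had 1.07, 0.222 and 1.04, above those of ADH2.

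The glycerol enzymes held both patterns. GPD1 had 360, 435 and 274 start codon counts and 132, 170 and 118 coding counts without selection, while GPD2 had 16, 7 and 8 start codon counts and 439, 129 and 263 coding counts. The phosphatases GPP1 and GPP2 had ratios of 3.38, 2.78 and 2.88 and of 4.77, 4.69 and 2.18, and these overlapped. A read that matches more than 1 copy could have been assigned to either or dropped, and how far that set these ratios was not tested. Summed over copies, the TDH family had 71.5% to 75.3% of its counts at the start codon without selection and 82.5% to 88.2% with it, and the PDC family 65.0% to 70.3% and 84.5% to 89.7%. The groups did not overlap for either family.

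**Figure D4:**
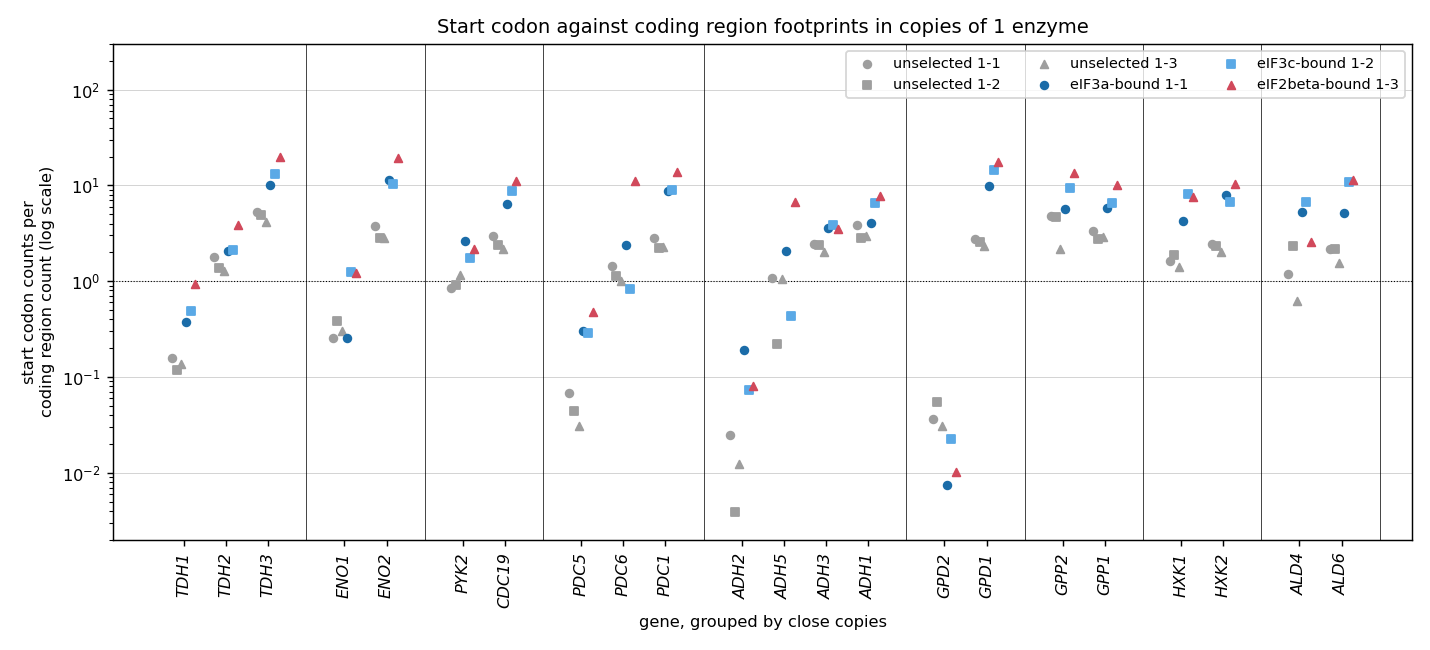
Start codon counts per coding region count (vertical axis, log scale) in each of the 6 libraries for genes grouped by close copies (horizontal axis). The dotted line marks 1 start codon count per coding count. TDH3, ENO2, PDC1, ADH1 and GPD1 lie above it in every library, and PDC5, ADH2 and GPD2 below it in every library, with GPD2 lower in bound than in unselected libraries.

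Between the factors, each with 1 library, there was no replicate and no test. The eIF2beta-bound library had a lower coding share than both eIF3-bound libraries in 28 of 33 members, against 60.8% of the 4716 genes, and a higher 5′ UTR share in 17 of 33, against 45.5%. In TDH3 the coding share was 8.58% with eIF3a, 6.77% with eIF3c and 4.57% with eIF2beta, and the 95% Wilson intervals of 8.43% to 8.72%, 6.66% to 6.89% and 4.48% to 4.67% cover counting error only. In ALD4 the 5′ UTR share went the other way, at 15.4%, 12.4% and 5.43%, from 21, 50 and 5 counts.

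Genes that feed or drain these pathways were counted in 6 lists. At start codons (1.34% of all genes rose and 5.12% fell), 1 of 19 citric acid cycle genes tested rose, PDX1, a pyruvate dehydrogenase component (0.93), and 2 fell, ACO1, the aconitase (−1.43), and PDA1, another pyruvate dehydrogenase subunit (−1.15). Of 8 genes of the pentose phosphate pathway 2 fell there, SOL3, a phosphogluconolactonase (−1.69), and RPE1, the ribulose phosphate epimerase (−1.24), and none rose. At start codons edgeR called 0 of 6 hexose transport genes (0 at an unadjusted p under 0.05), 0 of 13 of trehalose and glycogen (1), 0 of 3 of gluconeogenesis and glyoxylate (1) and 0 of 15 other enzymes and regulators (2). In 5′ UTRs edgeR called none of these lists' genes, with 3 of 17 in the citric acid cycle and 1 of 9 other enzymes at an unadjusted p under 0.05 and none in the rest. DESeq2 was not counted for these lists.

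In coding regions (14.4% of all genes rose and 11.8% fell), 3 of 7 hexose transporters fell, HXT6 (−1.41), HXT7 (−1.17) and HXT3 (−0.82), and HXT6 and HXT7 are near-identical copies whose counts cannot be separated here. In the citric acid cycle 2 of 19 fell, ACO1 (−1.29) and PDA1 (−0.88). Of 4 genes of gluconeogenesis and glyoxylate 2 fell, the pyruvate carboxylases PYC1 (−0.68) and PYC2 (−0.66). TPS3, a regulatory subunit of trehalose synthesis, fell by 1.21, 1 of 16 of its list, and ADH7, another alcohol dehydrogenase, rose by 1.95, 1 of 17 of the other enzymes. In the pentose phosphate pathway edgeR called 0 of 7 in coding regions, with 2 at an unadjusted p under 0.05. Coding folds moved with length here too: 24.7% of the longest tertile of genes fell and 2.31% of the shortest. How far length set the calls in these lists was not tested. In 3′ UTRs 1 gene of the lists was called, MDH2, the cytosolic malate dehydrogenase (−2.20, 2.21% of genes fell).

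Over all areas (15.4% of all genes rose and 17.3% fell), 9 of 20 citric acid cycle genes rose and 2 fell. IDH2, a subunit of isocitrate dehydrogenase, rose by 1.20 and LSC1, a subunit of succinyl-CoA ligase, by 1.20, while ACO1 fell by 1.19. Of 17 genes of trehalose and glycogen 4 rose and none fell, among them the trehalose phosphate synthase TPS1 (1.03) and the trehalases NTH2 (0.80) and NTH1 (0.72). Of 18 other enzymes 4 rose and 1 fell, with PFK27, which makes an activator of phosphofructokinase, at 1.38, ADH6, an alcohol dehydrogenase, at 0.94 and GUT1, the glycerol kinase, at −1.33. In the pentose phosphate pathway 1 of 8 rose, RKI1, the ribose phosphate isomerase (0.66), and RPE1 (−0.91) and SOL3 (−0.71) fell. Of 9 hexose transport genes 1 rose, the glucose sensor RGT2 (1.16), and 1 fell, the galactose permease GAL2 (−1.29), and PYC1 fell by 1.13, 1 of 4 of its list.

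In the ratio of start codon to coding region (9.06% of all genes rose and 10.2% fell), 3 of 12 genes of trehalose and glycogen rose, TPS3 (1.504), TPS1 (1.27) and UGP1, which makes UDP-glucose (0.69). HXT3 rose by 1.12, 1 of 6 hexose transport genes, and SFA1, a formaldehyde dehydrogenase, by 0.77, 1 of 13 other enzymes. In the pentose phosphate pathway GND1, a phosphogluconate dehydrogenase, rose by 0.84 and SOL3 fell by 1.63, of 7 tested.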

How the data were processed

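The authors deposited raw counts of 40S footprints, whole numbers with no scaling, for 5 areas of each gene in 6 libraries. The sources used here do not state how a footprint was given to an area, whether strand was used, or what was done with duplicates and with reads that match several places. Software named in the submitters' processing notes, with no role or order, is Bowtie2 2.2.6, Bowtie 1.2.2, TopHat2 2.1.0 and CASAVA 1.8, and the build is R64. The header of the deposited table calls the selected column of number 1-3 eIF2alpha, where the labels call it eIF2beta. The authors also deposited positions of cap sites. The 80S libraries and other deposited files were not used here.

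Of 5818 gene IDs, 5776 matched the RefSeq table of R64, as did all 33 members, and 75 genes had no count. Positions are from that table, 1-based. Members, lists and tests were chosen with earlier results of these data known. All members are named. From related lists, up to 3 called genes with the largest folds are named for each list and area.

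Each area was fitted over all genes with edgeR 4.0.16 (R 4.3.3; filterByExpr, TMM within the area, quasi-likelihood test of 3 bound against 3 unselected libraries, Benjamini-Hochberg, threshold 0.05). Ratios used limma 3.58.1 on log2 ratios with a pseudocount of 0.5, centred on the median gene, for genes with a mean of at least 10 counts in both areas. Standard errors for edgeR were obtained from the fold and its F statistic (fold over root F). The fits were tested on simulated data. Numbers 1-1, 1-2 and 1-3 mark the same strain in both groups per the labels. Libraries that share a number deviated together from their groups (r of 0.148 to 0.589 across areas), so the number was used as a block in an alternative. Between unlike numbers r was at most 0.022, but centring on group means lowers these values, so they add no separate support. Other alternatives were DESeq2 1.42.0, RLE factors, no filter, summed copies, scaling to all areas, an offset for coding length, other pseudocounts and minima, no centring, and each library left out. Shares carry 95% Wilson intervals where single libraries are compared. Python 3.11.15, pandas 2.3.3, SciPy 1.17.1 and matplotlib 3.10.9 were used.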

Additional observations from a re-analysis of the deposited data

How the results depend on the processing

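Counts of members called kept within 1.5 times of those above under DESeq2, RLE factors, no filter and the coding-length offset. With the strain as a replicate block, calls went from 0 to 1 in 5′ UTRs, 2 to 11 at start codons and 9 to 18 over all areas. The block took PDC1 from the called ratios and ended no other call. With close copies summed, coding regions had 7 calls among 18 units tested, which are families and single genes and so are not comparable one to one with the 33 members.

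Scaling to all areas gave 23 calls of 28 in 5′ UTRs (75.4% of all genes tested), 9 of 30 at start codons (26.8%), 22 of 33 in coding regions (53.5%), 18 of 18 at stop codons (85.3%) and 12 of 20 in 3′ UTRs (43.7%). It turned 5′ UTR folds positive for CDC19 (1.07), PGI1 (1.30), PGK1 (0.89), GPD1 (1.06), TPI1 (1.06), TDH1 (1.28), TDH2 (1.19), FBA1 (0.92), GPM1 (0.80), PDC1 (1.26), ACS2 (1.29), PFK2 (1.21), ADH1 (1.23) and ALD6 (0.94), and that of CDC19 at the start codon (0.46). It turned folds negative in coding regions for TDH3 (−0.66), TDH2 (−0.034) and ADH3 (−0.16), at stop codons for PGK1 (−1.76), TPI1 (−1.45), HXK2 (−1.75), GPP1 (−1.37), FBA1 (−1.11), PDC1 (−1.67) and ADH3 (−1.29), and in 3′ UTRs for GPP1 (−0.90) and PDC1 (−1.04). These follow from its construction, which keeps the shift common to an area.

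Without centring, the ratio of 5′ UTR to start codon had 1 call (PGI1, also called at a minimum of 30 counts, 1 call), and that of start codon to coding region 24 of 28 (67.5% of all genes tested). The latter turned positive for PGK1 (1.31), TPI1 (1.15), GPP2 (1.28), GPP1 (1.27), FBA1 (1.02), GPM1 (0.92), ADH1 (0.89) and PYK2 (1.13).

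Leaving out each library in turn gave 0 to 2 calls at start codons, 4 to 8 at stop codons and 0 to 5 for the ratio of start codon to coding region. Of 78 area shares of members with close copies, 25 moved by more than 1 SD when the copies were summed. Depth limits PDC6, ADH4, ADH5, PYK2 and ACS1, which had at most 82 counts over all areas in any unselected library, and the 15 members not tested at stop codons and 13 in 3′ UTRs. No difference between factors had a replicate.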
